A study of Mus musculus with 6 samples.

Results

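The genes described here mark red blood cells in the lung of RAG1-/- and RAG1-/- Sgo1-/+ mice. Of the 7 genes named for this purpose, 5 were analysed among the 25860 genes of the deposited table, namely Hba-a1, Hba-a2, Hbb-b1, Alas2 and Slc4a1. Hbb-b2 and Ahsp were not analysed here. The genes were named as red blood cell genes, with earlier results of these data known, and were compared as CPM, the reads of a gene scaled to a common library total.

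RNA came from normal-looking lung of 12-month-old mice on a C57BL/6 background, with 3 RAG1-/- mice (numbered 1 to 3) and 3 that were RAG1-/- Sgo1-/+ (numbered 4 to 6). Every mouse lacked Rag1, which is needed for mature B and T cells, so both groups carried that deletion. The RAG1-/- Sgo1-/+ mice had in addition lost a copy of Sgo1, the protector of cohesin at centromeres. Both alleles were carried in the germ line, and whether the lungs were flushed of blood is not given in the sources used here.

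Red blood cells circulate without a nucleus and carry RNA left over from their last steps of maturation in the bone marrow. That RNA is dominated by the alpha and beta chains of haemoglobin, the oxygen carrier. Whole lung holds blood in its capillaries, so its RNA includes this fraction. In bulk tissue, fewer red blood cells and less RNA per cell cannot be told apart.

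Between 3205822 and 9366774 reads were counted per library, so that 3 reads equalled 0.320 to 0.936 CPM. Sgo1 was barely detected, with between 0 and 6 reads in each library, and its log2 fold change of 0.10 (SE 1.09) did not test the label. Rag1 had between 8 and 24 reads (log2 fold change -0.15, SE 0.50). The 8 lung epithelial markers summed to between 78628 and 100250 CPM, as the tissue label states. RAG1-/- replicate 2 and RAG1-/- Sgo1-/+ replicate 6 stood apart, with 23 and 49 genes at 10 CPM or more and at least 4-fold above all other libraries. Replicate 1 of RAG1-/- had 12 such genes and was the library with Xist reads (7717, against 4 to 8 elsewhere). Nothing in the labels states whether the mice were littermates, and p-values measure the spread between these 6 libraries.

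The alpha chain genes are shown first, because their sequences set how far their reads can be told apart. The coding sequences of Hba-a1 and Hba-a2, 426 bases each without the stop codon in GENCODE, differed at 1 base, C381T, counted from the A of the start codon in Hba-a1. In GRCm38, the base and 30 coding bases on each side lie at chr11:32284313-32284373 in Hba-a1 and chr11:32297130-32297190 in Hba-a2, both on the plus strand. The differing base is in capitals.
Hba-a1: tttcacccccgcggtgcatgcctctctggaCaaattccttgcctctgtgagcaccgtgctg
Hba-a2: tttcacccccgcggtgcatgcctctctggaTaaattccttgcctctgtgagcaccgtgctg
Of the 277 stretches of 150 bases (the read length given in the methods) within the coding sequence, 231 (83.4%) were identical between the genes. How reads that match both places were assigned is not given in the sources used here. The split between Hba-a1 and Hba-a2 is therefore uncertain, and their values are not independent of each other.

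Promoters of these genes are shown next, and whether their letters bear on the profiles over the libraries was not tested. RefSeq (GRCm38.p6) gave a start site for 3 of the 7 genes, and for Hbb-bs, a beta chain gene of the table that was not among the 7. The 200 bases before each start lie at chr11:32283472-32283671 (plus strand, Hba-a1), chr11:32296292-32296491 (plus strand, Hba-a2), chrX:150547217-150547416 (plus strand, Alas2) and chr7:103827929-103828128 (minus strand, Hbb-bs). Capitals mark, on either strand, GATAA (the letters bound by GATA factors), CACCC (bound by Klf1 and its relatives), CCAAT and the TATA box letters ATATAA.
Hba-a1: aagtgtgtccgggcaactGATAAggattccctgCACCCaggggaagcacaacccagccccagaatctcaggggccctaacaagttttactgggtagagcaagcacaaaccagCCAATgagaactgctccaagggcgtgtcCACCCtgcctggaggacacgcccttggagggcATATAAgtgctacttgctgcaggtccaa
Hba-a2: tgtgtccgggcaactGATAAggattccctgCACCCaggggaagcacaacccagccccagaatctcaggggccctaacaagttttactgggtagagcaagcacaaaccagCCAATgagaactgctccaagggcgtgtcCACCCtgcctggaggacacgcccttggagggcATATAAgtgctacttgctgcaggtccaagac
Alas2: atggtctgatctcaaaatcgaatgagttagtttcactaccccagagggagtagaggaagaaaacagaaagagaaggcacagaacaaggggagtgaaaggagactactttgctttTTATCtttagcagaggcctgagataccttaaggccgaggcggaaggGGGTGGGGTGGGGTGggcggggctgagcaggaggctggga
Hbb-bs: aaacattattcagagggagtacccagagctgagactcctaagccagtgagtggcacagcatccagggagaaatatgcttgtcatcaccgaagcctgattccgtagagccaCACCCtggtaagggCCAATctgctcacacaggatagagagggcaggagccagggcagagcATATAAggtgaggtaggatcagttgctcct
The Hba-a1 and Hba-a2 windows were the same sequence with starts 3 bases apart, identical at 197 of 197 shared bases. All 4 windows held CACCC. The letters GATAA were found in 3 of the 4, and CCAAT and ATATAA each in 3. Over 32851 promoters of the same length, CACCC was present in 45.5%, CCAAT in 29.3%, GATAA in 18.1% and ATATAA in 7.30%.

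Hba-a1 and Hba-a2 encode the alpha chain of adult haemoglobin. Hba-a1 stood at 1048, 1937 and 2794 CPM in RAG1-/- replicates 1, 2 and 3, and at 839, 1486 and 1056 CPM in RAG1-/- Sgo1-/+ replicates 4, 5 and 6. The groups overlapped, because RAG1-/- replicate 1 was below replicates 5 and 6 of the other group. The means were 1926 ± 873 and 1127 ± 329 CPM (SD, n = 3 each). The log2 fold change of RAG1-/- Sgo1-/+ over RAG1-/- was -0.77 (SE 0.32, 95% interval -1.48 to -0.062), with an unadjusted p of 0.0359 and an adjusted p of 0.832 in edgeR's quasi-likelihood test, and the exact permutation test of CPM gave p = 0.3 (two-sided, smallest possible 0.1).

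Hba-a2 followed Hba-a1 from library to library, with 843, 1519 and 2206 CPM in RAG1-/- against 650, 1098 and 820 CPM in RAG1-/- Sgo1-/+. The highest value was again in RAG1-/- replicate 3 and the lowest in RAG1-/- Sgo1-/+ replicate 4, and the groups overlapped through RAG1-/- replicate 1. The means were 1523 ± 682 and 856 ± 227 CPM (SD, n = 3 each). The log2 fold change was -0.83 (SE 0.31, 95% interval -1.52 to -0.14), with edgeR's unadjusted p = 0.0228 and adjusted p = 0.832, and the exact permutation p was 0.2.

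**Figure D1:**
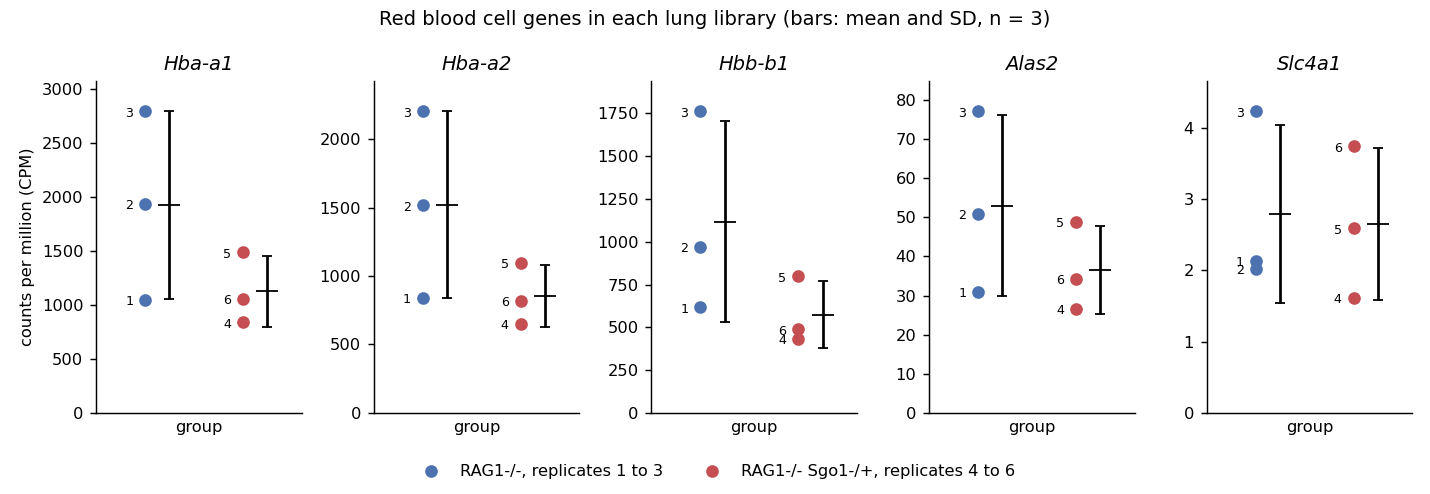
CPM of each gene (linear axes from 0, a separate scale for each gene) in the 3 RAG1-/- libraries (blue) and the 3 RAG1-/- Sgo1-/+ libraries (red), numbered by replicate, with the mean and SD beside them. In all 5 genes RAG1-/- replicate 3 was the highest library and RAG1-/- Sgo1-/+ replicate 4 the lowest, and the groups overlapped.

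Hbb-b1 encodes a beta chain of adult haemoglobin, the partner of the alpha chain. It was measured at 616, 971 and 1763 CPM in RAG1-/- and at 434, 799 and 488 CPM in RAG1-/- Sgo1-/+. RAG1-/- replicate 1 lay between replicates 5 and 6 of the other group, so the groups overlapped. With means of 1117 ± 587 and 574 ± 197 CPM (SD, n = 3 each), Hbb-b1 had the log2 fold change farthest from 0 of the 5 genes. It was -0.96 (SE 0.35, 95% interval -1.74 to -0.18), with edgeR's unadjusted p = 0.0209 and adjusted p = 0.832, and the exact permutation p was 0.2.

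Alas2, on the X chromosome, encodes the first enzyme of haem synthesis in the red cell lineage. It stood at 31.0, 50.9 and 77.2 CPM in RAG1-/- and at 26.7, 48.9 and 34.3 CPM in RAG1-/- Sgo1-/+, from 110 to 510 reads per library. The order of the libraries was that of Hba-a1, and the groups overlapped. The means of 53.0 ± 23.2 and 36.6 ± 11.3 CPM (SD, n = 3 each) gave a log2 fold change of -0.52 (SE 0.32, 95% interval -1.23 to 0.18). The edgeR unadjusted p was 0.129, the adjusted p 0.840 and the exact permutation p 0.4.

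Slc4a1, the band 3 anion exchanger of the red cell membrane, was close to the limit of detection, at 20, 10 and 28 reads in the RAG1-/- libraries against 8, 14 and 12 in those of RAG1-/- Sgo1-/+. These reads equalled 2.14, 2.02 and 4.24 CPM against 1.62, 2.59 and 3.74 CPM, and the groups overlapped throughout. The log2 fold change was -0.11 (SE 0.53), with a 95% interval from -1.29 to 1.08 that holds a 2-fold difference in either direction at this depth. The edgeR unadjusted p was 0.844 (adjusted 0.983), and the exact permutation p was 0.9.

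Over all 17231 genes tested, 0 (0%) were called at an adjusted p under 0.05 and at least 2-fold, and 976 had an unadjusted p under 0.05. DESeq2 called 1 gene (Awat1, with 65 reads in RAG1-/- Sgo1-/+ replicate 6 and 0 elsewhere, named after its values were seen), and limma-voom called 0. Of the 5 red blood cell genes, 0 were called and 3 (the haemoglobin genes) had an unadjusted p under 0.05 with lower values in RAG1-/- Sgo1-/+, beside 2.52% of all genes. The 3 genes are near-copies or partners expressed in the same cells and do not count as separate observations. The median log2 fold change was -0.77 in the 5 genes and 0.034 over all genes, and 752 genes (4.36%) had a log2 fold change at or below that of Hba-a1. None of the 5 had groups that did not overlap with RAG1-/- Sgo1-/+ lower, against 5.54% of all genes.

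The number of genes at an unadjusted p under 0.05 depended on which libraries were kept. Without RAG1-/- replicate 3, the log2 fold changes of Hba-a1, Hba-a2 and Hbb-b1 were -0.40, -0.46 and -0.47, and 0 of the 5 genes had an unadjusted p under 0.05 (edgeR). The count was also 0 without RAG1-/- Sgo1-/+ replicate 4, with values of -0.60, -0.67 and -0.79. It was 0 as well without RAG1-/- Sgo1-/+ replicate 6 (-0.73, -0.80 and -0.86) and without both libraries that stood apart, RAG1-/- replicate 2 and RAG1-/- Sgo1-/+ replicate 6 (-0.72, -0.80 and -0.95), although these values were close to those of all libraries. The count was 2 without RAG1-/- replicate 2, and DESeq2 on all libraries gave 1. Without RAG1-/- replicate 1, the library with Xist reads, the same values were -1.07, -1.12 and -1.25, that of Alas2 was -0.80, and 4 of the 5 genes had an unadjusted p under 0.05. The lowest adjusted p of these 5 genes over all alternatives was 0.622.

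**Figure D2:**
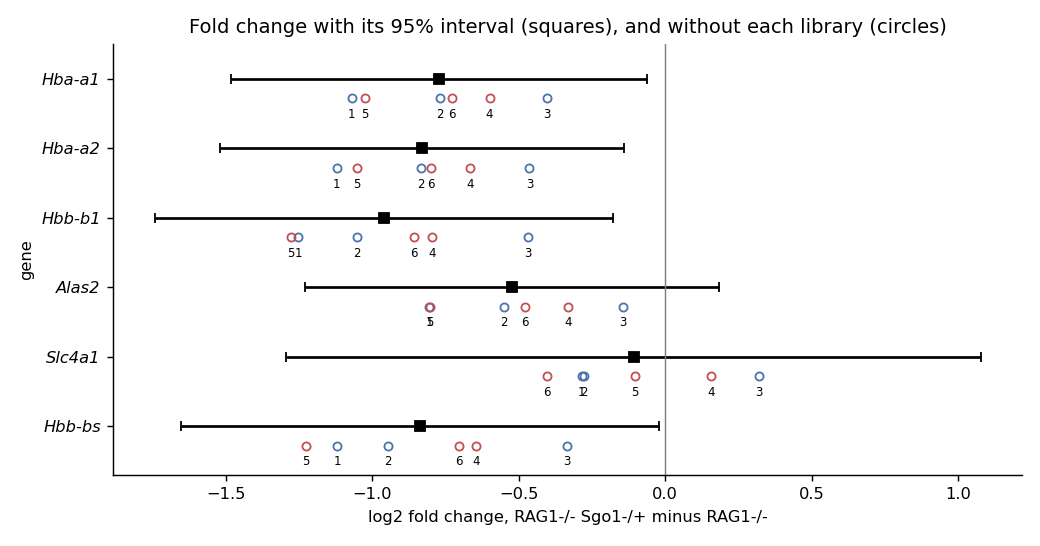
Log2 fold change of RAG1-/- Sgo1-/+ over RAG1-/- with its 95% interval (squares and bars) and the same value after leaving out each library (circles, numbered by the replicate left out, blue for RAG1-/- and red for RAG1-/- Sgo1-/+). For the haemoglobin genes and Alas2 the value nearest to 0 was that without RAG1-/- replicate 3, and Slc4a1 lay on either side of 0.

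Mice of the same genotype differed in these genes more than in most others. The SD of log2 CPM within RAG1-/- was 0.71 for Hba-a1, 0.70 for Hba-a2, 0.76 for Hbb-b1, 0.65 for Alas2 and 0.53 for Slc4a1, against a median of 0.18 over the 13800 genes with at least 100 reads. These values lay between the 92.4th and the 96.9th percentile of those genes. Within RAG1-/- Sgo1-/+ the SD was between 0.38 and 0.53 (median over genes 0.23), at the 76.0th to 88.4th percentile. Slc4a1, with 92 reads in all, is not one of the genes it was ranked against. It had the lowest of the percentiles within RAG1-/- and the highest within RAG1-/- Sgo1-/+. At so few reads its SD includes counting error, and how much was not tested. Across all 6 libraries the highest CPM was 3.33 times the lowest for Hba-a1, 3.40 times for Hba-a2, 4.06 times for Hbb-b1, 2.89 times for Alas2 and 2.62 times for Slc4a1. The 5 genes together took 0.254%, 0.448% and 0.685% of the reads in the RAG1-/- libraries, against 0.195%, 0.344% and 0.240% in those of RAG1-/- Sgo1-/+. The ratio of the group means of their summed CPM was 0.562, and leaving out each library gave ratios of 0.459 to 0.740.

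**Figure D3:**
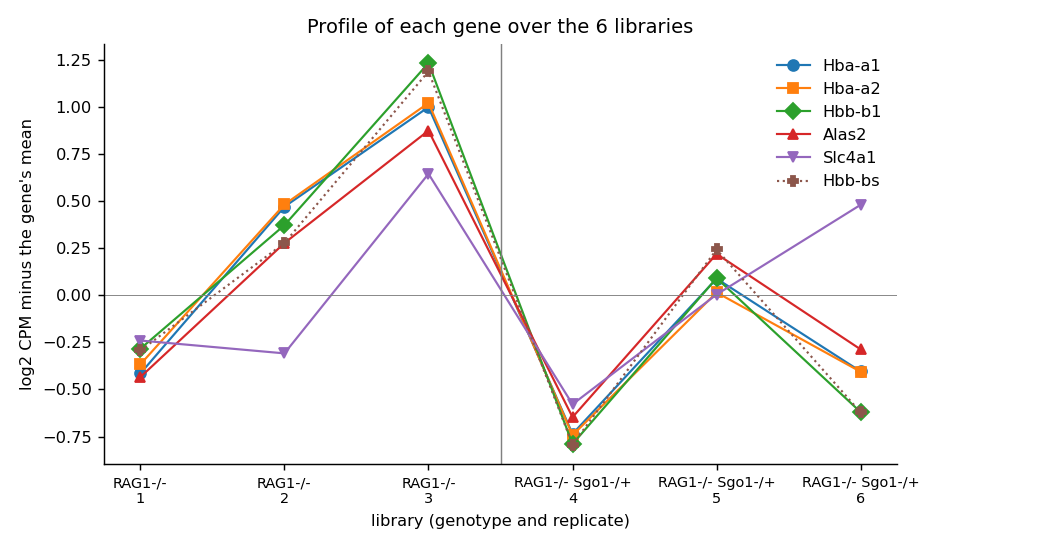
Log2 CPM of each gene minus its mean over the 6 libraries, by library (RAG1-/- left of the grey line). The haemoglobin genes and Alas2 ran together, highest in RAG1-/- replicate 3 and lowest in RAG1-/- Sgo1-/+ replicate 4, and Slc4a1 departed from them in replicates 2 and 6.

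Levels of different genes were compared per kilobase of the longest protein-coding transcript in GENCODE. In RAG1-/- the mean was 2756 ± 1249 CPM per kilobase for Hba-a1, 2748 ± 1230 for Hba-a2, 26.0 ± 11.4 for Alas2 and 0.616 ± 0.275 for Slc4a1 (SD, n = 3). In RAG1-/- Sgo1-/+ it was 1613 ± 471, 1545 ± 409, 18.0 ± 5.55 and 0.583 ± 0.234 CPM per kilobase in the same order. Hba-a1 and Hba-a2 did not differ beyond their spread. As ratios, the steps from them to Alas2 and from Alas2 to Slc4a1 were larger than the highest over the lowest library of any of the 4 genes. Hbb-b1 was not matched to a transcript and is given no value per length.

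The shares of the haemoglobin chains varied far less between libraries than the amount of haemoglobin reads. Hba-a1 took 55.4%, 56.0% and 55.9% of the reads of Hba-a1 and Hba-a2 in RAG1-/- and 56.4%, 57.5% and 56.3% in RAG1-/- Sgo1-/+. These shares did not overlap between the groups, but the 95% Clopper-Pearson intervals of replicates 4 and 6 overlapped those of all 3 RAG1-/- libraries, and reads that match both genes leave the split uncertain. Hbb-b1 took 43.1%, 44.6% and 43.7% of the reads of Hbb-b1 and Hbb-bs in the RAG1-/- libraries, against 43.0%, 40.4% and 43.0% in those of RAG1-/- Sgo1-/+, where replicate 5 was lowest. The assignment of reads that match both beta genes is not given either, and their sequences were not compared. The split between Hbb-b1 and Hbb-bs is therefore uncertain as well, and their values may not be independent of each other. The alpha genes held 57.0%, 61.3% and 55.3% of the reads on the 4 adult haemoglobin genes (Hba-a1, Hba-a2, Hbb-b1 and Hbb-bs) in RAG1-/- and 59.6%, 56.6% and 62.3% in RAG1-/- Sgo1-/+. Within each genotype this alpha share moved between libraries by more than the counting intervals, which were at most 1.94 percentage points wide, and the groups overlapped. Counts were often even (80.5% of all counts from 1 to 20), so these intervals cover counting error only and may be too narrow.

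Relative to haemoglobin, Alas2 went the other way from its CPM. It made up 0.924%, 0.896% and 0.847% of the reads on Alas2 and the 4 haemoglobin genes in RAG1-/-, against 1.06%, 1.06% and 1.13% in RAG1-/- Sgo1-/+. The means were 0.889% ± 0.039 and 1.08% ± 0.039 (SD, n = 3 each), and the groups did not overlap. The interval of RAG1-/- Sgo1-/+ replicate 6, with 110 Alas2 reads, ran from 0.927% to 1.36%, and that of RAG1-/- replicate 1 from 0.821% to 1.04%, so these libraries were within counting error of each other, while the interval of RAG1-/- replicate 3 ended at 0.923%, below those of RAG1-/- Sgo1-/+ replicates 5 and 6. This ratio was chosen after its values were seen and was not tested. The Slc4a1 share, from 8 to 28 reads, was between 0.036% and 0.064% in RAG1-/- and between 0.057% and 0.124% in RAG1-/- Sgo1-/+, and its groups overlapped.

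**Figure D4:**
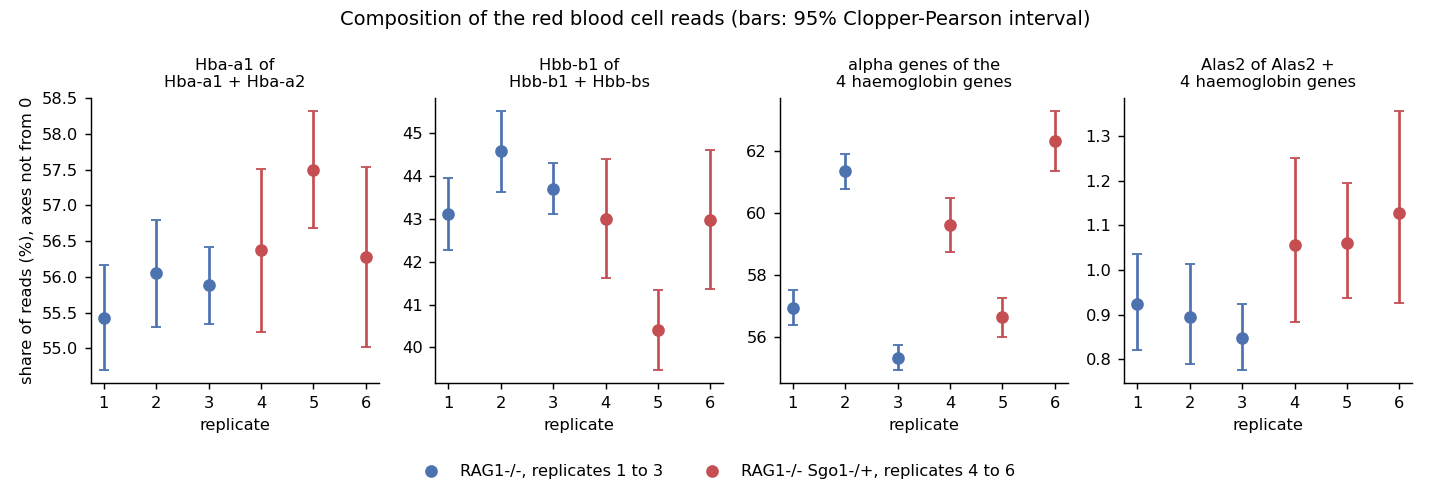
Shares of reads (%, axes not from 0) by replicate in RAG1-/- (blue) and RAG1-/- Sgo1-/+ (red), with 95% Clopper-Pearson intervals. The share of Alas2 among Alas2 and haemoglobin reads was between 0.847% and 0.924% in RAG1-/- and between 1.06% and 1.13% in RAG1-/- Sgo1-/+, while the alpha share overlapped between the groups.

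The other haemoglobin chains were read next. Hbb-bs, a beta chain gene named in the table as beta-1-like, had 813, 1207 and 2271 CPM in RAG1-/- and 575, 1179 and 647 CPM in RAG1-/- Sgo1-/+. Its libraries had the order of Hbb-b1 and its groups overlapped, with a log2 fold change of -0.84 (SE 0.37, edgeR unadjusted p = 0.0452, adjusted p = 0.832). The embryonic chains Hba-x, Hbb-y, Hbb-bh1 and Hbb-bh2 had 0 reads in all 6 libraries, which allows up to 0.936 CPM in the shallowest, and were named for this after their values were seen. Hbq1a and Hbq1b, theta chain genes beside the alpha genes, had at most 6 reads in any library. Of the 7 chains read, 3 were tested, and 1 (Hbb-bs) had an unadjusted p under 0.05, lower, with a median log2 fold change of 0.44 that came from the sparse theta genes. The globins of other cells, Mb (muscle), Cygb (fibroblasts) and Ngb (neurons), had log2 fold changes between -0.20 and -0.03, and 0 of 3 had an unadjusted p under 0.05.

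The other genes of haem synthesis include enzymes that most cells use and mitochondrial carriers known mainly from the red cell lineage. Of 11 tested, 0 had an unadjusted p under 0.05 in either direction, against 3.15% of all genes higher and 2.52% lower, and their median log2 fold change was 0.045. Alas1, the form of the enzyme found outside the red cell lineage, averaged 377 ± 83.4 CPM in RAG1-/- and 440 ± 60.8 in RAG1-/- Sgo1-/+ (SD, n = 3 each), with a log2 fold change of 0.22 (SE 0.18). Fech, which inserts the iron, had -0.19 (SE 0.17), and Slc25a37, a mitochondrial iron importer, had 0.04 (SE 0.22). The groups did not overlap for 2 of the 11, Cpox and Slc25a38 (named after their values were seen), both higher in RAG1-/- Sgo1-/+, as in 6.24% of all genes.

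Among 12 tested genes of the red cell membrane and its skeleton, 0 had an unadjusted p under 0.05 and the median log2 fold change was -0.01. The most abundant, Tmod1, Epb41 and Gypc, are used in many cell types and had log2 fold changes of -0.11 (SE 0.23), 0.03 (SE 0.13) and -0.17 (SE 0.27). No read was counted in any library on Rhag, a membrane protein of red cells that was named after its values were seen.

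Of 11 tested genes for red cell enzymes and late maturation, 1 had an unadjusted p under 0.05 and was lower, and the median log2 fold change was -0.14. This gene was Bpgm, which makes the 2,3-bisphosphoglycerate that sets the oxygen affinity of haemoglobin. Bpgm had 93.3, 107 and 153 CPM in RAG1-/- and 79.6, 90.8 and 86.1 CPM in RAG1-/- Sgo1-/+. All 3 RAG1-/- libraries lay above the others, as for 5.54% of all genes, and the log2 fold change was -0.46 (SE 0.18, edgeR unadjusted p = 0.0282, adjusted p = 0.832). Bnip3l, which clears mitochondria, and Cat, which breaks down hydrogen peroxide, had log2 fold changes of -0.22 (SE 0.13) and -0.08 (SE 0.14). Car1 and Trim58, also picked out for their counts, had 0 reads in all libraries.

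Of the transcription factors of red cell precursors, those most restricted to that lineage were at or near 0. Klf1 had at most 2 reads in a library, Gfi1b at most 2 and Gata1 at most 8, and these were singled out for their low counts. Of 11 tested, 1 was higher and 1 lower at an unadjusted p under 0.05, against 3.15% and 2.52% of all genes, and the median log2 fold change was -0.05. Zbtb7a, a repressor of fetal globin genes that is also active in other cells, had 61.4, 54.3 and 62.0 CPM in RAG1-/- and 92.9, 77.2 and 82.0 CPM in RAG1-/- Sgo1-/+, with no overlap, as in 6.24% of all genes in that direction (log2 fold change 0.50, SE 0.13, edgeR unadjusted p = 0.0029, adjusted p = 0.832). Lmo2, an adaptor of the GATA complexes that endothelium also uses, had 61.6, 68.1 and 86.3 CPM against 48.1, 61.5 and 56.8 CPM (log2 fold change -0.38, SE 0.16, edgeR unadjusted p = 0.0417, adjusted p = 0.832). Its groups did not overlap, as in 5.54% of all genes in that direction, although RAG1-/- replicate 1 and RAG1-/- Sgo1-/+ replicate 5 were nearly equal. Tfrc, the transferrin receptor, had a log2 fold change of -0.05 (SE 0.19), Ldb1 of 0.11 (SE 0.14) and Kit of -0.23 (SE 0.17).

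**Figure D5:**
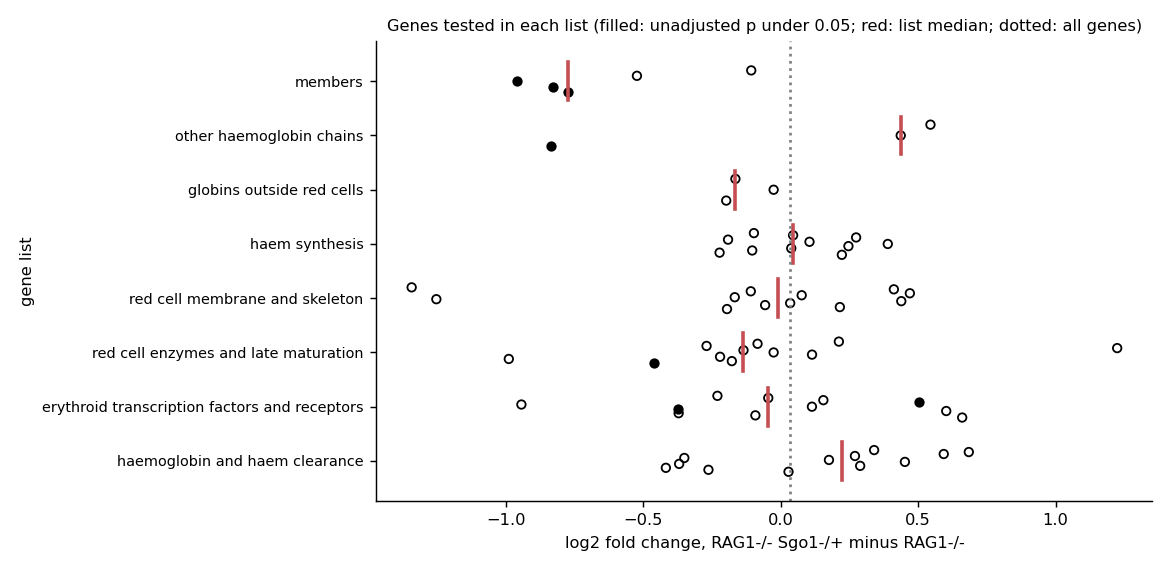
Log2 fold change of each tested gene by list (circles, filled at an unadjusted p under 0.05), with the list median in red and the median of all 17231 genes as a dotted line at 0.034. The median of the 5 red blood cell genes was -0.77, and those of the 5 plotted lists with 11 or 12 tested genes lay between -0.14 and 0.22.

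Markers of other cells were set beside the haemoglobin values. The summed CPM of 6 adipocyte markers was 729 in RAG1-/- replicate 1, the library with the least haemoglobin of its group, and between 60.6 and 115 in the others. The median of that list was -1.73, and 4 of 6 genes had an unadjusted p under 0.05, lower, among them Retn, Cfd and Adipoq. For 6 B cell markers the sum was 454 CPM in RAG1-/- replicate 2, where Igkc had 1853 reads, and between 6.67 and 8.75 in the others, and 3 of 5 tested genes had an unadjusted p under 0.05, lower. The 6 T cell markers reached 24.6 CPM in RAG1-/- replicate 2 and 17.8 CPM in RAG1-/- Sgo1-/+ replicate 6, with 0 of 6 at an unadjusted p under 0.05 and a median of -0.92. Neutrophil markers, also carried in blood, summed to between 120 and 271 CPM in RAG1-/- and between 85.1 and 202 in RAG1-/- Sgo1-/+. Ltf, the most abundant of these markers, had 146 of the 271 CPM in RAG1-/- replicate 1. It had 144 of the 202 CPM in RAG1-/- Sgo1-/+ replicate 6, and less in every other library. The log2 fold change of Ltf was 0.09 (SE 0.46), and sums without it were not compared. Of 7 neutrophil markers tested, 3 had an unadjusted p under 0.05, lower (S100a9 -1.43, S100a8 -1.23 and Csf3r -0.65 as log2 fold changes), and the median was -0.65. Their highest sum was in RAG1-/- replicate 1 and not in replicate 3, where haemoglobin was highest, and both were lowest in RAG1-/- Sgo1-/+ replicate 4. The part of these cells in the haemoglobin values was not tested. The epithelial, endothelial, cardiac muscle and dividing cell lists had 0 genes at an unadjusted p under 0.05 and medians of -0.01, -0.11, -0.22 and 0.17.

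The genes whose profile over the 6 libraries was most like the mean profile of the 5 red blood cell genes were sought among 13796 other genes with at least 100 reads, by the root mean square difference of centred log2 CPM. The closest were Rps6ka5 (0.15), Rnaseh2b (0.16), Lrat (0.17), a gene with Entrez Gene ID 100503173, described as zinc finger protein 135-like (0.17), and AI839979 (0.18). Hbb-bs was 6th with 0.20. The mean profile gives equal weight to Slc4a1, which had 8 to 28 reads per library. Slc4a1 departed from the other members in replicates 2 and 6, with centred values of -0.31 and 0.48, and its part in this ranking was not tested. Lrat, which esterifies retinol for storage, had 95.4, 138 and 221 CPM in RAG1-/- and 93.7, 118 and 119 CPM in RAG1-/- Sgo1-/+, and its groups overlapped. The others were sparse, with 108 to 542 reads in all. The adjusted p of the 5 genes was 0.832 to 0.874 in edgeR's test.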

How the data were processed

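Total RNA from lung, extracted with TRIzol and prepared with TruSeq V2, was sequenced with paired reads. The authors deposited read counts per gene, made in GeneSifter on mouse genome build 37.2 and not normalised; the submitters' processing notes name BWA and edgeR without versions. Each library had 2 identical columns, and the first was used. A second deposited file holds the authors' own comparison, with fold changes and p-values, and was not used. Entrez Gene IDs were matched to symbols for 24048 of 25860 genes (93.0%).

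Samples were grouped by their labels. Counts were tested with edgeR 4.0.16 (quasi-likelihood test, R 4.3.3) on genes with at least 10 reads in all, library sizes were total counts, and p-values were adjusted by Benjamini-Hochberg over 17231 genes. A gene was called at an adjusted p under 0.05 and at least 2-fold. SEs were derived from the fold change and its F statistic. Named genes were every member, Sgo1 and Rag1, up to 3 genes of each list by unadjusted p and up to 3 by mean CPM, and the 5 genes of most similar profile. Those outside this rule are marked where they are named, apart from Xist, which is also outside it. The members and lists were chosen with earlier results of these data known. Alternatives were TMM, DESeq2 size factors, library sizes without haemoglobin reads, other filters and thresholds, DESeq2 1.42.0, limma-voom (limma 3.58.1), halved counts, the ratio of group means and each library left out. Leaving out RAG1-/- replicate 2 and RAG1-/- Sgo1-/+ replicate 6 together was added after seeing the data. The workflow was tested on simulated data. Depth was 3205822 to 9366774 reads. Sequences are from RefSeq and GENCODE M21 (GRCm38), which is not the build of the counts.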

Additional observations from a re-analysis of the deposited data

How the results depend on the processing

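Of the 5 red blood cell genes, Hba-a1, Hba-a2, Hbb-b1 and Alas2 had lower means in RAG1-/- Sgo1-/+ under every alternative run. Without each library in turn their log2 fold changes lay between -1.07 and -0.40, -1.12 and -0.46, -1.28 and -0.47, and -0.80 and -0.15. Slc4a1 changed sign, to 0.32 without RAG1-/- replicate 3 and 0.16 without RAG1-/- Sgo1-/+ replicate 4, in a range from -0.40 to 0.32, and was -0.57 without RAG1-/- replicate 2 and RAG1-/- Sgo1-/+ replicate 6; the cause was not tested. The number of genes called was 0 in the main analysis, 1 with DESeq2, 233 without adjustment of p, and 0 to 1 without each library. The 1 call came without RAG1-/- Sgo1-/+ replicate 5 and was H2-K1 (named after its values were seen), which had 2107 reads there against 114 and 101 in replicates 4 and 6. DESeq2 and limma-voom gave 694 and 837 genes at an unadjusted p under 0.05. No paired analysis was made because the labels give no matching of mice between the groups. Depth limits Slc4a1 and the other sparse red cell genes, and reads shared between Hba-a1 and Hba-a2 limit their split. The split between Hbb-b1 and Hbb-bs is uncertain as well.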

Other observations

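Platelets are another cell of the blood that carries RNA without a nucleus. Of 11 platelet and megakaryocyte genes tested, 1 had an unadjusted p under 0.05, higher in RAG1-/- Sgo1-/+ (3.15% of all genes), and the median log2 fold change was 0.40. Gp5, a platelet membrane glycoprotein, had 1.71, 4.85 and 4.54 CPM in RAG1-/- and 8.48, 6.30 and 7.49 CPM in RAG1-/- Sgo1-/+. These values came from 16, 24 and 30 reads and from 42, 34 and 24 reads. The groups did not overlap for Gp5, as in 6.24% of all genes in that direction. Its log2 fold change was 1.04 (SE 0.42, edgeR unadjusted p = 0.0349, adjusted p = 0.832). The summed CPM of the list was between 73.2 and 94.4 in RAG1-/- and between 78.9 and 116 in RAG1-/- Sgo1-/+, with RAG1-/- Sgo1-/+ replicate 6 highest.

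Haemoglobin and haem set free from red blood cells are bound, broken down and stored by a separate group of genes. Of 12 tested, 0 had an unadjusted p under 0.05, and the median log2 fold change was 0.22. Hp, the plasma protein that binds free haemoglobin, averaged 1579 ± 365 CPM in RAG1-/- and 1610 ± 183 in RAG1-/- Sgo1-/+ (SD, n = 3 each). The ferritin chains Fth1 and Ftl1, which store iron, had log2 fold changes of 0.27 (SE 0.15) and 0.59 (SE 0.31). Ftl1 had 786, 794 and 788 CPM in RAG1-/- and 757, 853 and 1963 CPM in RAG1-/- Sgo1-/+, so its higher mean came from replicate 6. The summed CPM of the 12 genes was lowest in RAG1-/- replicate 3, at 4122, the library with the most haemoglobin. It was highest in RAG1-/- Sgo1-/+ replicate 6, at 6538, a sum that includes this Ftl1 value.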
